A study of Mus musculus with 7 samples.

Results

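Integrins and the proteins that gather on their cytoplasmic tails at focal adhesions were followed in the RNA of isolated mouse glomeruli, the filtering units of the kidney. The genes were every symbol starting with Itga or Itgb, together with 17 named adaptors and kinases. In all, 45 of the 12958 measured symbols fell under this rule: 26 integrin subunits (17 α and 9 β), 2 integrin-binding proteins caught by their symbols, and the 17 adaptors and kinases. All 45 were tested, since no filter on low values was applied, and all matched a gene of GENCODE mouse release M21 on GRCm38.

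Glomeruli came from 7 male BALB-C mice aged 14 weeks, with 1 library per animal. Every mouse, controls included, had taken doxycycline in food and drinking water over 6 weeks, starting at 8 weeks of age. Knockdown mice (n = 3) carried an siRNA transgene against Shroom3, an actin-binding protein of cell junctions, and control mice (n = 4) were littermates lacking that transgene. The sources used here do not give the promoter that drives the transgene or the cells in which it acts. Sample titles began in different ways: with G in 5 libraries (replicates 1 and 2 of knockdown, 1 to 3 of control) and with CB6 in 2 (knockdown replicate 3 and control replicate 4).

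Shroom3 itself was at a log2 expression of 10.80, 10.91 and 10.89 in the knockdown libraries and at 10.94, 10.85, 11.36 and 11.06 in the control libraries, so the groups overlapped and the target gives no check of the labels (log2 fold change -0.19, SE 0.11; limma with Benjamini-Hochberg adjustment, adjusted p = 0.417). The groups are therefore named as labelled. Library medians lay between 9.15 and 9.16 and sequencing depth is unknown. Podocyte and endothelial markers were high in every library: summed on the linear scale, 14 podocyte markers reached log2 values of 18.06 to 18.30 in knockdown and 17.89 to 18.37 in control libraries, and 11 endothelial markers 16.48 to 16.81 and 16.61 to 17.13. RNA of tubule cells was present too, with 13 proximal tubule markers summing to 17.59 to 17.95 and 17.87 to 18.25. Distal tubule and collecting duct markers (9 genes) summed to 16.57 to 16.82 and 16.42 to 16.82.

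Integrins are receptors made of 1 α and 1 β chain that bind matrix proteins such as laminin, collagen and fibronectin outside the cell. Inside the cell, talin and kindlin bind the β tail, vinculin and tensins tie it to actin, and the complex of integrin-linked kinase, PINCH and parvin stabilises the link, while focal adhesion kinase, paxillin, p130Cas and Crk pass signals on. In the glomerulus the laminin receptor α3β1 anchors podocytes to the basement membrane, and α8β1 is the mesangial receptor for nephronectin. The αv chain pairs with several β chains, and αvβ6 and αvβ8 are known for releasing active TGF-β from its latent complex.

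The αv chain is the shared partner in the group of genes with the largest differences below, so the stretch before the transcription start is shown for Itgav, which hardly differed, and for Itgb5, one of its partners with lower values. Both are 250 bases long, run 5′ to 3′ on the plus strand and are credited to RefSeq on GRCm38.p6, at chr2:83724147-83724396 for Itgav and chr16:33829415-33829664 for Itgb5. Capitals mark GC boxes (GGGCGG on either strand).
Itgav: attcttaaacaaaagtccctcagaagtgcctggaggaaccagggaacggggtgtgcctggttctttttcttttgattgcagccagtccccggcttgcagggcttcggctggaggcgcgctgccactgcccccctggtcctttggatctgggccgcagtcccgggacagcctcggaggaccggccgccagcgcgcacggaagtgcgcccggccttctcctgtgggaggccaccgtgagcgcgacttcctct
Itgb5: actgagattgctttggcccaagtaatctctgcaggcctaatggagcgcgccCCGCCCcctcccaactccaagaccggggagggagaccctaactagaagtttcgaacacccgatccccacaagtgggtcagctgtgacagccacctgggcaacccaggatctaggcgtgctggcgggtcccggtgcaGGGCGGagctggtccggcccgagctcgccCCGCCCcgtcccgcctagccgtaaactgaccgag
The Itgb5 stretch held 3 GC boxes and the Itgav stretch 0, at similar G and C contents of 65.2% and 64.4%. A GC box was found in 32.7% of 32851 mouse promoter stretches of this length and in 20 of the 42 entries of the genes studied here, which covered 33 of the 45 genes. The median G and C content of all stretches was 52.4%, below that of both stretches printed here. Both stretches lacked an AP-1 motif (TGANTCA, in 6.75% of all stretches), a TEAD motif (GGAATG, in 12.6%) and the CArG box of serum response factor (in 1.47%), searched on both strands. The stretches of Itgb6 and Itgb8 overlap exons of GENCODE and are not printed.

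Itgb8, the integrin β8 chain, was the single gene of the 45 past the adjusted threshold when all 7 libraries were fitted on the group: it fell by 0.58 on the log2 scale, to about 33% less transcript. At an adjusted p under 0.05 (limma, Benjamini-Hochberg over all genes) 1 of the 45 genes passed (2.22%), against 3.02% of all genes (2.02% lower and 0.996% higher), so the share was no higher than in the tables as a whole. With a looser adjusted p of 0.1, 6 of the 45 passed (Itgb8, Tln2, Itga4, Itgb3, Parva and Itgb6), all lower, where 6.53% of all genes did (3.84% lower). At an unadjusted p under 0.05 there were 12 of 45 (26.7%), 11 lower and 1 higher, against 18.4% of all genes (8.67% lower and 9.77% higher). Every knockdown library lay below every control library in 9 genes and above in 1, 22.2% of the 45, against 18.4% of all genes (7.55% below and 10.8% above). The median log2 fold change of the 45 genes was -0.058, beside 0.024 over all genes, and -0.0050 without control replicate 3. In all, 29 were negative (64.4%), where 43.8% of all genes were. For 31 of the 45 genes the 95% interval of the log2 fold change lay inside -0.5 to 0.5, which was so for 73.6% of all genes.

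**Figure D1:**
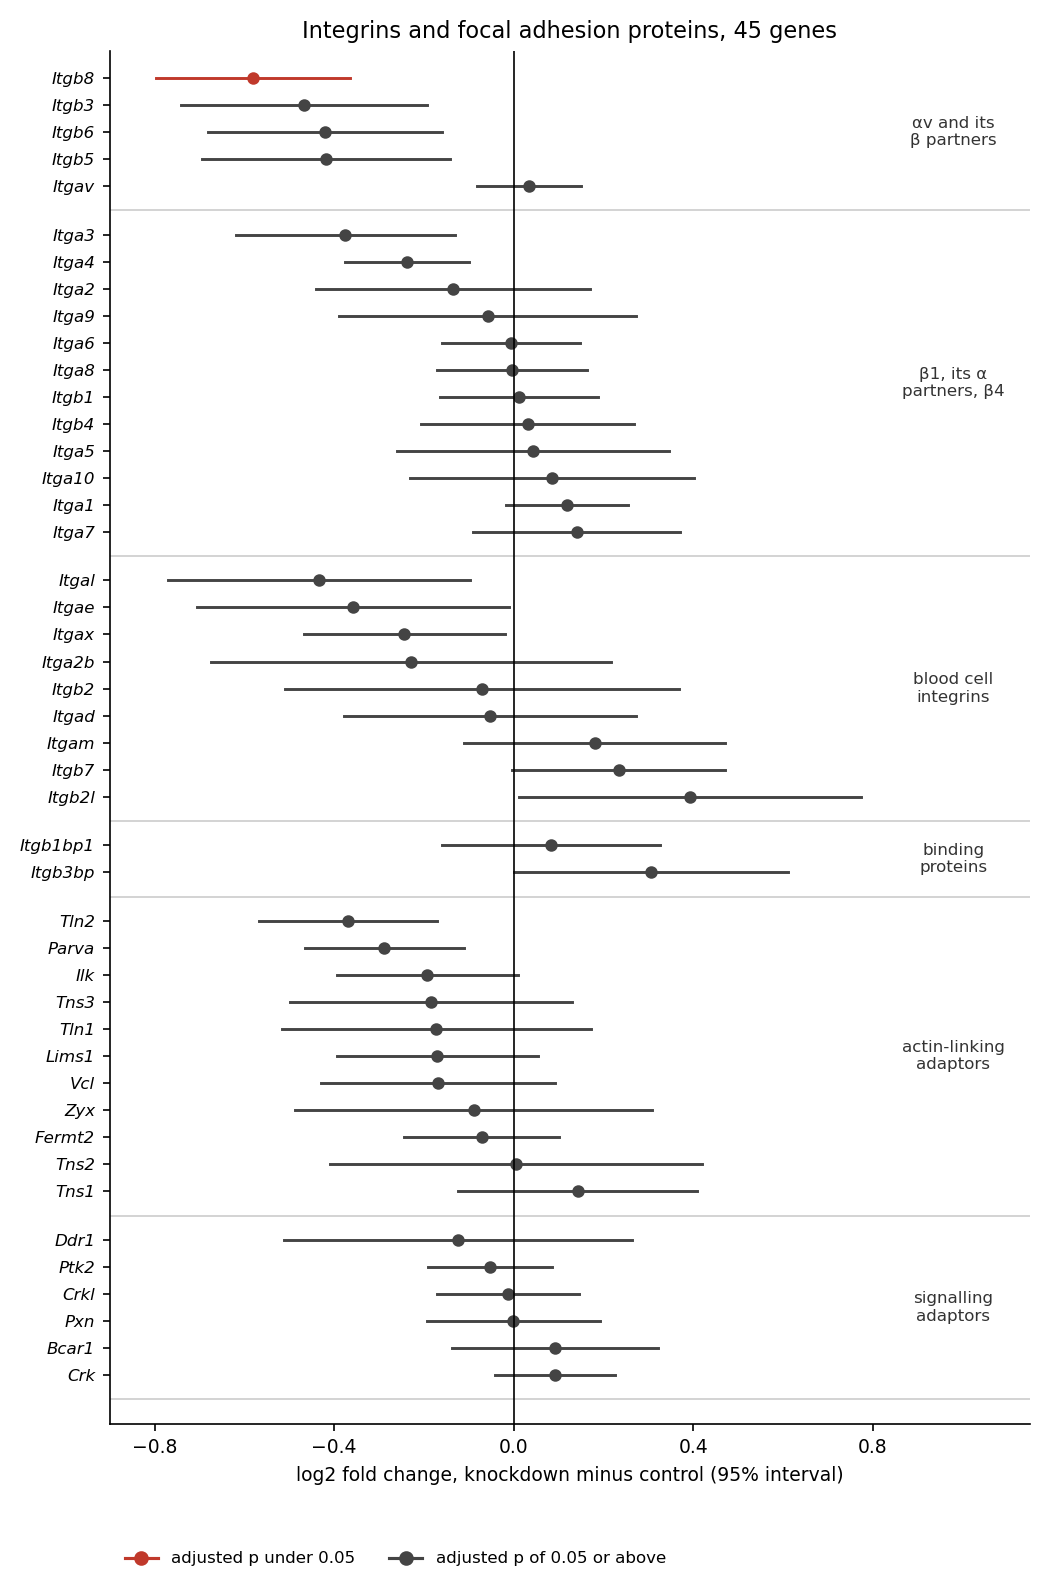
Log2 fold change (knockdown minus control, horizontal axis) of each of the 45 genes with its 95% interval from limma, grouped by role; n = 3 knockdown and 4 control libraries. Itgb8, in red, is the gene with an adjusted p under 0.05, at -0.58, while its partner Itgav sits at 0.034.

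**Figure D2:**
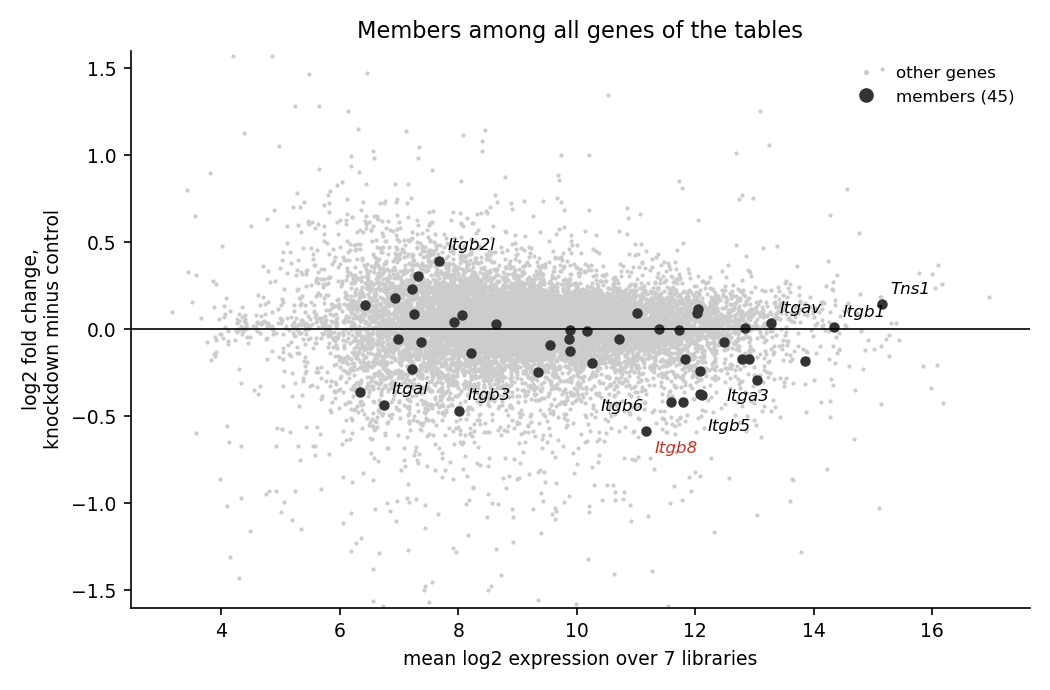
Log2 fold change (vertical axis) against mean log2 expression (horizontal axis) for the 45 genes (dark) and the other genes of the tables (grey); 47 other genes lie outside the plotted range. The 45 genes spread between -0.58 and 0.39, inside the cloud of all genes.

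Within the αv group, Itgb3, Itgb5, Itgb6 and Itgb8 were lower in every knockdown than in every control library, while Itgav differed by little. These 4 of 5 genes stand beside 7.55% of all genes that were lower without overlap. Itgb1, which also pairs with αv, was grouped with the β1 receptors and differed by 0.012 on the log2 scale. Itgb8 (ENSMUSG00000025321.14; GRCm38 chromosome 12, 119158022 to 119238802, minus strand) was at 11.02, 10.68 and 10.80 in the knockdown libraries and at 11.36, 11.49, 11.28 and 11.53 in the control libraries. Every knockdown library thus lay below every control library, with knockdown replicate 2 the lowest. The mean was 10.83 ± 0.17 (SD, n = 3) in knockdown against 11.42 ± 0.12 (SD, n = 4) in control, which gives a log2 fold change of -0.58 (SE 0.09, 95% CI -0.80 to -0.37; limma with Benjamini-Hochberg adjustment over all genes, adjusted p = 0.0173). The exact permutation test over libraries, 2-sided, returned p = 0.0286, the smallest that 3 against 4 libraries allow. The difference was -0.52 within the libraries titled G and -0.74 within the CB6 pair, and the call held with title style as a covariate (limma, Benjamini-Hochberg adjusted p = 0.0378). It did not hold without the CB6 pair (adjusted p = 0.229), knockdown replicate 2 (0.0836), knockdown replicate 3 (0.0804) or control replicate 4 (0.0586; all limma with Benjamini-Hochberg adjustment), at log2 fold changes of -0.51 to -0.56.

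In bulk RNA, fewer cells of a type and less RNA per cell cannot be told apart, and β8 has been described in mesangial cells. The mesangial and pericyte list had 8 negative genes of 10 and a median of -0.13; past the threshold were Serpine2 at -0.39, which inhibits proteases, and Sfrp2 at -0.98, which modulates Wnt signals (limma, Benjamini-Hochberg adjusted p = 0.0454 and 0.0343, or 0.0967 and 0.0644 with title style as a covariate). Of the others, Pdgfrb, Gata3, Cspg4, Fhl2 and Tagln lay between -0.10 and 0.031 with overlap, and Des, Ptn and Agtr1a between -0.42 and -0.16. The list's summed level was 14.25 to 14.51 in knockdown and 14.37 to 14.84 in control libraries, and its lowest value of any marker was 8.76. Among podocyte markers 11 of 14 were negative (median -0.17; Magi2 fell by 0.70), among endothelial markers 11 of 11 (median -0.23, none past the threshold) and among proximal tubule markers 11 of 13 (median -0.44, 6 lower and 1 higher past the threshold). Markers of the distal tubule and collecting duct went the other way, with 6 of 9 positive, a median of 0.21 and 2 higher past the threshold, Slc4a1 at 0.86, which exchanges chloride and bicarbonate, and Atp6v1g3 at 0.56, part of the vacuolar proton pump (limma, Benjamini-Hochberg adjusted p = 0.0170 and 0.0447, or 0.0343 and 0.0870 with title style as a covariate). The part of these markers in the Itgb8 difference was not tested.

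Itgb3, the β chain of the αvβ3 vitronectin receptor and of the platelet fibrinogen receptor, was at 7.69, 7.89 and 7.67 in knockdown and 8.31, 8.21, 7.98 and 8.37 in control libraries. Itgb5, the β chain of a further vitronectin receptor, was at 11.35, 11.69 and 11.62 against 12.05, 11.70, 12.17 and 11.97. Itgb6, an epithelial β chain, was at 11.31, 11.47 and 11.27 against 11.60, 12.01, 11.57 and 11.90. In each of the 3 the groups did not overlap, though for Itgb5 the highest knockdown and the lowest control library, replicates 2 of both groups, were 0.01 apart when rounded. Their log2 fold changes were -0.47 (95% CI -0.74 to -0.19) for Itgb3, -0.42 (-0.70 to -0.14) for Itgb5 and -0.42 (-0.68 to -0.16) for Itgb6. None passed over all genes (limma, Benjamini-Hochberg adjusted p = 0.0796, 0.110 and 0.0944), and the exact permutation test gave p = 0.0571 for each. Without control replicate 2, Itgb5 passed at -0.51 (limma, adjusted p = 0.0366), and without control replicate 3, Itgb3 passed at -0.55 (adjusted p = 0.0443). Among the control libraries, Itgb6 was highest in replicates 2 and 4, and so was Itgb8. In these libraries the proximal tubule markers also summed highest, at 18.08 and 18.25 against 17.87 and 17.97 in control replicates 1 and 3. In knockdown replicates 1, 2 and 3 the sums were 17.95, 17.60 and 17.59. Beside them stood Itgb6 values of 11.31, 11.47 and 11.27 and Itgb8 values of 11.02, 10.68 and 10.80. Of the 13 summed markers, 7 were past the threshold in limma, among them Pck1 at 1.49 and Kap at -2.19. Between groups the sum therefore need not follow the amount of proximal tubule cells. What part those cells had in the differences of Itgb6 and Itgb8 was not tested.

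Itgav (chromosome 2, 83724397 to 83806916, plus strand), the αv chain common to these receptors, was at 13.27, 13.33 and 13.32 in knockdown and 13.32, 13.26, 13.26 and 13.25 in control libraries. Its 7 values spanned less than any other αv-group gene, and the groups overlapped. Knockdown minus control came to 0.034 on the log2 scale (SE 0.05, 95% CI -0.08 to 0.15; limma, Benjamini-Hochberg adjusted p = 0.780), so a fall as large as the -0.58 of Itgb8 lay outside its interval. GENCODE places exon bases of Gm13684, on the opposite strand, over 5.90% of those of Itgav, and the use of strand in counting is not given in the sources used here.

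**Figure D3:**
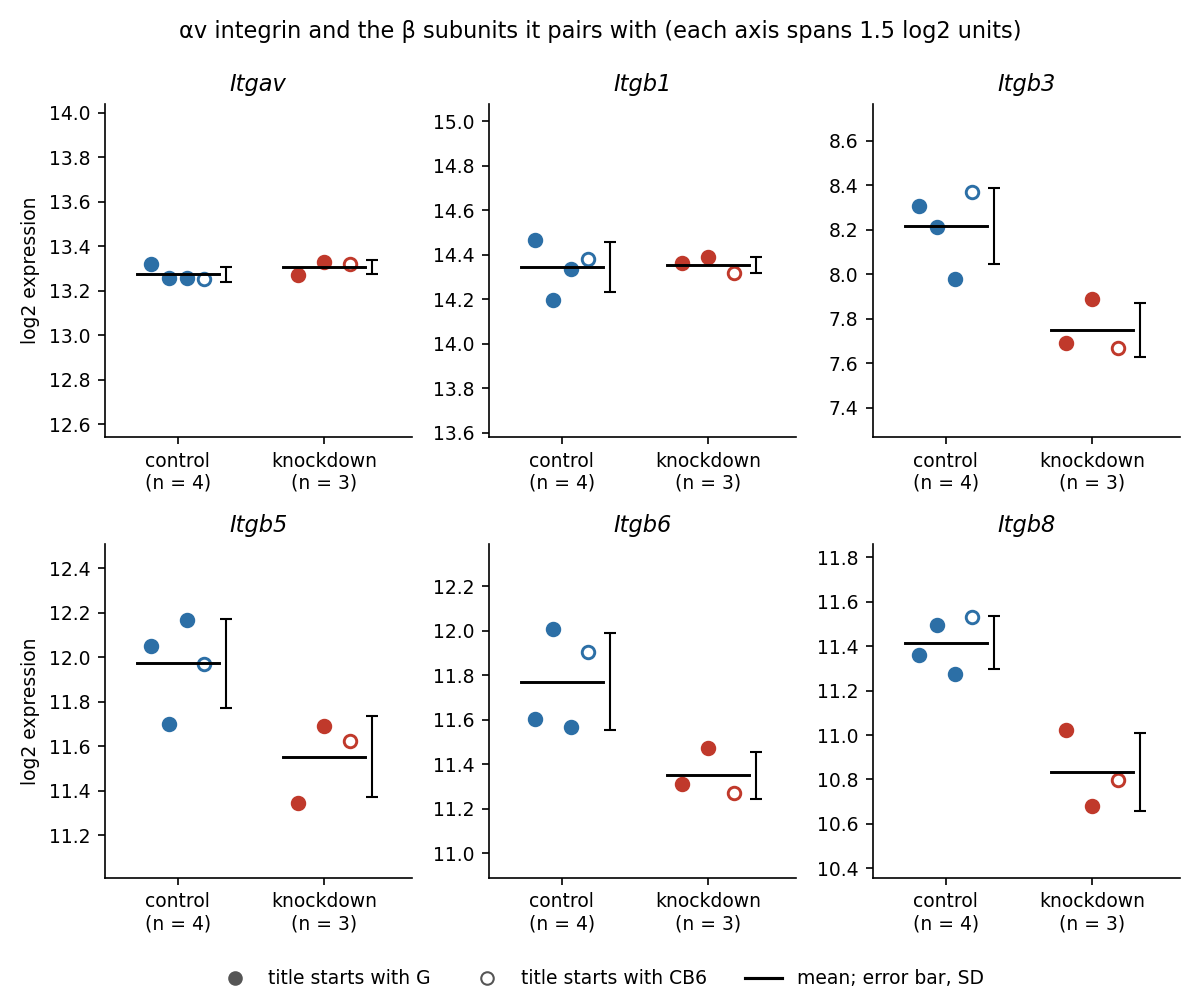
Log2 expression of Itgav and of the 5 β chains it pairs with, 1 point per library (filled, titles starting with G; open, titles starting with CB6), with the group mean and an SD error bar; the vertical axes differ in position but all span 1.5 log2 units. Itgav and Itgb1 overlap between groups, while all 3 knockdown values of Itgb3, Itgb5, Itgb6 and Itgb8 lie below the 4 control values.

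The genes of the β1 receptors differed little. Itgb1, the chain shared by all the α partners here, was at 14.36, 14.39 and 14.32 in knockdown and 14.47, 14.20, 14.34 and 14.38 in control libraries. The groups overlapped, with a log2 fold change of 0.012 (95% CI -0.16 to 0.19; limma, Benjamini-Hochberg adjusted p = 0.958). Of the 12 genes of this group (Itgb1, its 10 α partners and Itgb4, the β chain that pairs with α6) 6 were negative and 6 positive, with a median of 0.0042. In limma none passed the adjusted threshold, and 2 (16.7%) had an unadjusted p under 0.05, against 18.4% of all genes. In 11 of the 12 the 95% interval lay inside -0.5 to 0.5.

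The 2 of these 12 genes without overlap between groups (16.7%, against 18.4% of all genes) were Itga3 and Itga4. Itga3, the α chain of the podocyte laminin receptor, was at 11.72, 11.98 and 11.99 in knockdown and 12.36, 12.04, 12.45 and 12.24 in control libraries. Knockdown replicate 1 was the lowest, and control replicates 1 and 3 the highest. At -0.37 on the log2 scale (SE 0.11, 95% CI -0.62 to -0.13) it missed the threshold over all genes (limma, Benjamini-Hochberg adjusted p = 0.107), which it passed without control replicate 2 (-0.45; adjusted p = 0.0394). Podocyte markers were negative in 11 of 14, as above, and their part in the Itga3 difference was not tested. Itga4, whose α4β1 receptor binds fibronectin and VCAM-1, was at 11.90, 11.94 and 11.99 against 12.31, 12.12, 12.12 and 12.17. Its groups did not overlap and both were tight, with a log2 fold change of -0.24 (SE 0.06, 95% CI -0.38 to -0.10; limma, adjusted p = 0.0791) and an exact permutation p of 0.0286. It passed in none of the 13 other fits (adjusted p from 0.0684 to 0.384).

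The remaining genes of the β1 receptors overlapped between knockdown and control. Itga8, the mesangial α chain, was at 9.89, 9.94 and 9.83 in knockdown and 9.99, 9.78, 9.82 and 9.97 in control libraries. The ranges coincided, with a log2 fold change of -0.0033 (95% CI -0.17 to 0.16). Itga1, a collagen receptor chain, was at 12.14, 12.15 and 12.04 against 11.92, 12.07, 11.92 and 12.04, with a log2 fold change of 0.12 (95% CI -0.018 to 0.26). Its groups overlapped between 12.04 and 12.07 (limma, Benjamini-Hochberg adjusted p = 0.333). Itga5, the α chain of the classical fibronectin receptor, was at 7.87, 8.00 and 7.98 against 7.97, 7.62, 8.16 and 7.87, and its control values enclosed the knockdown values. The other genes of the group (Itga2, Itga6, Itga7, Itga9, Itga10 and Itgb4) had log2 fold changes from -0.13 to 0.14. The lowest was that of Itga2 (95% CI -0.44 to 0.17), which stayed negative in all 13 other fits. GENCODE places exon bases of Gm42957 over 33.5% of those of Itga10, so its reads may be shared. Because sign changes with the setting for Itgb1, Itga5, Itga6, Itga8, Itga9, Itga10 and Itgb4, no direction is given for them.

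Transcript levels within the family were ordered after dividing by the length of each gene's exons, as log2 value per kilobase. Whether the deposited values were already divided by length is not given in the sources used here; across 12680 genes the mean log2 value had a Spearman correlation of 0.305 with log2 exon length, with genes not independent. Among β chains of the control libraries Itgb1 stood first at 12.32 ± 0.11 (SD, n = 4) log2 per kilobase, followed by Itgb5 at 10.14 ± 0.20, Itgb6 at 8.94 ± 0.22 and Itgb8 at 7.95 ± 0.12. The ranges of these 4 per kilobase did not touch. Without the division, the control ranges of Itgb5 (11.70 to 12.17) and Itgb6 (11.57 to 12.01) overlapped. Itgb4, Itgb2, Itgb7, Itgb3 and Itgb2l followed between 5.81 and 5.40, each overlapping its neighbour. Among α chains Itgav (9.85 ± 0.03) and Itga3 (9.76 ± 0.18) led and could not be separated per kilobase. Without the division, the control range of Itgav (13.25 to 13.32) lay above that of Itga3 (12.04 to 12.45). Next per kilobase came Itga6 (8.55 ± 0.07) and Itga4 (8.37 ± 0.09), which overlapped each other, and then Itga1 (7.77 ± 0.08). Itgax, Itga8 and Itga9 lay between 7.18 and 6.95 with overlapping ranges, and the remaining 9 α chains between 5.60 and 3.34.

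Integrins of blood cells were low in these libraries, and in limma none passed the adjusted threshold, while 4 of 9 (44.4%) had an unadjusted p under 0.05, against 18.4% of all genes. Of the 9 genes, 8 had means in the lowest 25% of all genes, Itgax, the α chain of a receptor of dendritic cells and macrophages, being the exception. Itgal, the α chain of the lymphocyte receptor LFA-1, was at 6.30, 6.74 and 6.44 in knockdown and 7.04, 6.95, 6.67 and 7.04 in control libraries. Its groups overlapped through control replicate 3 and knockdown replicate 2 (log2 fold change -0.43, 95% CI -0.77 to -0.10; limma, Benjamini-Hochberg adjusted p = 0.164). Itgax was at 9.07, 9.27 and 9.27 against 9.65, 9.31, 9.41 and 9.41, without overlap, which is -0.24 on the log2 scale (adjusted p = 0.233). Itgae, the E-cadherin receptor chain of tissue lymphocytes, was at 6.26, 6.11 and 6.02 against 6.58, 6.61, 6.12 and 6.64, which is -0.36 on the log2 scale (adjusted p = 0.256).

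Against these, Itgb2l, a relative of the leukocyte β2 chain, was higher in each knockdown library than in 3 of the control libraries. It was at 7.69, 7.96 and 8.06 in knockdown and 7.50, 7.91, 7.35 and 7.29 in control libraries, with control replicate 2 inside the knockdown range (log2 fold change 0.39, 95% CI 0.01 to 0.77; limma, Benjamini-Hochberg adjusted p = 0.256). Itgb7, which pairs with α4 and αE, was higher without overlap, at a log2 fold change of 0.23 (adjusted p = 0.279). Itga2b of platelets, Itgad, Itgam and Itgb2 had log2 fold changes from -0.23 to 0.18, with overlap. GENCODE places exon bases of Gm49368 over 68.7% of those of Itgam, so its reads may be shared. The 6 measured leukocyte markers summed to 10.89 to 11.05 in knockdown and 10.88 to 11.24 in control libraries, with 3 negative and 3 positive and a median of -0.007. None of them passed. Ptprc, the pan-leukocyte CD45, stood at -0.26 on the log2 scale (limma, Benjamini-Hochberg adjusted p = 0.289), and the part of leukocytes in these differences was not tested. None of the 4 platelet markers listed was among the symbols analysed here.

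Both genes caught by symbol alone were positive without passing. Itgb3bp, known chiefly as a centromere protein, had a log2 fold change of 0.31 (95% CI -0.0001 to 0.61) and Itgb1bp1, the ICAP-1 protein that binds the β1 tail, of 0.083.

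Among the actin-linking adaptors 9 of 11 were negative, with a median of -0.17. In limma none passed the adjusted threshold, and 2 (18.2%) had an unadjusted p under 0.05, about the 18.4% of all genes, of which 43.8% were negative. Tln2, the second talin, was at 11.86, 11.77 and 11.97 in knockdown and 12.05, 12.37, 12.34 and 12.18 in control libraries. The groups did not overlap. Tln2 missed the threshold narrowly (limma, Benjamini-Hochberg adjusted p = 0.0630) with a log2 fold change of -0.37 (SE 0.09, 95% CI -0.57 to -0.17). It passed in 2 of 13 other fits, without control replicate 1 (-0.43; adjusted p = 0.0317) and when the lower 25% of genes by mean were left out (adjusted p = 0.0465), the latter with fewer genes to adjust over. Tln1, the more widely expressed talin, was at 12.61, 12.81 and 12.99 against 12.89, 12.81, 13.39 and 12.82. Control replicate 3 stood apart and the groups overlapped (log2 fold change -0.17, 95% CI -0.52 to 0.17; without that library -0.03). The difference between the talins was not tested.

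The complex of integrin-linked kinase, PINCH and parvin had 3 negative members. Parva, α-parvin, was at 12.77, 12.94 and 12.95 in knockdown and 13.26, 13.02, 13.26 and 13.16 in control libraries, without overlap. Its log2 fold change was -0.29 (SE 0.08, 95% CI -0.47 to -0.11; limma, Benjamini-Hochberg adjusted p = 0.0905), and it passed without control replicate 2 (-0.34; adjusted p = 0.0434). Ilk was at 9.97, 10.18 and 10.30 against 10.45, 10.35, 10.34 and 10.23, overlapping through the CB6 pair, in which knockdown was higher by 0.067, while within the libraries titled G it was -0.30. Exons of Taf10 on the opposite strand cover 76.7% of the exon bases of Ilk, so without strand the reads of both genes cannot be told apart. Lims1, the PINCH-1 gene, had a log2 fold change of -0.17 with overlap (adjusted p = 0.405).

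**Figure D4:**
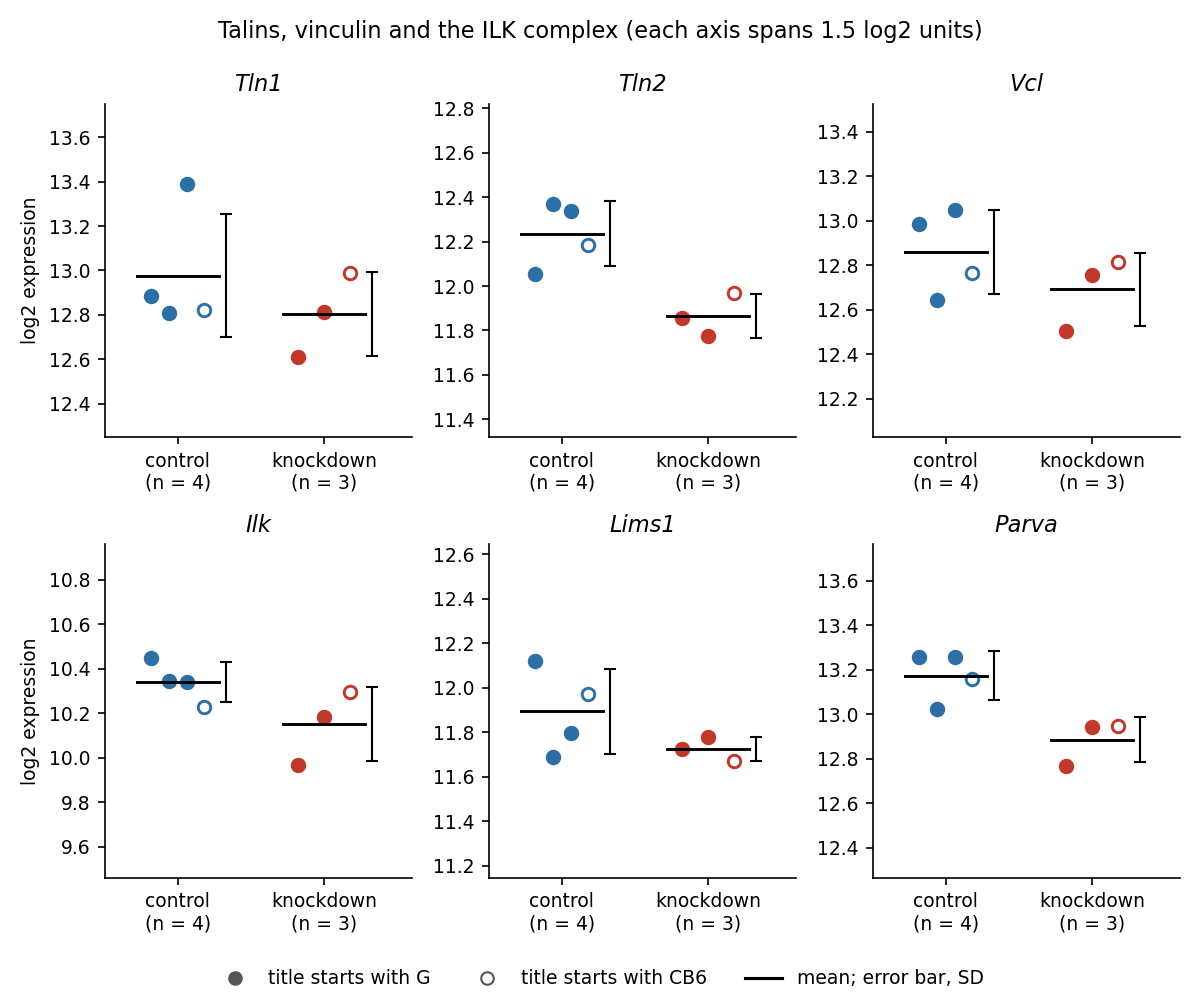
Log2 expression of both talins, vinculin and the 3 genes of the ILK complex, 1 point per library (filled, titles starting with G; open, titles starting with CB6), with the group mean and an SD error bar; every vertical axis spans 1.5 log2 units. Tln2 and Parva show no overlap between groups, while Tln1, Vcl, Ilk and Lims1 do.

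Vinculin, kindlin-2 and zyxin overlapped between groups. Vcl was at 12.51, 12.76 and 12.81 in knockdown and 12.99, 12.64, 13.05 and 12.77 in control libraries (log2 fold change -0.17, 95% CI -0.43 to 0.09; -0.076 without knockdown replicate 1 and -0.11 without control replicate 3). Exons of Ap3m1 on the opposite strand cover 25.5% of the exon bases of Vcl, so without strand its reads may be shared. Fermt2, which encodes kindlin-2, was at 12.35, 12.55 and 12.43 against 12.63, 12.38, 12.52 and 12.54. Zyx, a LIM protein of mature adhesions, was at 9.37, 9.61 and 9.49 against 9.32, 9.33, 10.07 and 9.59. Its high value in control replicate 3 set its sign: without that library the log2 fold change went from -0.089 to 0.075. The 3 tensins, Tns1, Tns2 and Tns3, which bind β tails and actin, had log2 fold changes of 0.14, 0.0061 and -0.18, the sign of Tns2 changing with the setting. Single libraries moved the others: Tns3 was at -0.092 without knockdown replicate 1, -0.10 without control replicate 3 and -0.28 without control replicate 2, and Tns1 at 0.23 without knockdown replicate 1 or control replicate 3 and 0.090 without knockdown replicate 3.

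Of the 6 signalling kinases and adaptors, 5 had a 95% interval inside -0.5 to 0.5. Ptk2, which encodes focal adhesion kinase, was at 10.70, 10.63 and 10.72 in knockdown and 10.73, 10.65, 10.84 and 10.71 in control libraries (log2 fold change -0.053, 95% CI -0.19 to 0.09). Pxn, paxillin, was at 11.23, 11.41 and 11.50 against 11.34, 11.37, 11.55 and 11.27 (log2 fold change -0.0009, 95% CI -0.19 to 0.19). In both genes the groups overlapped. Bcar1 (p130Cas), its partners Crk and Crkl, and the collagen receptor kinase Ddr1 had log2 fold changes from -0.12 to 0.093, and the adjusted p of these 6 genes ran from 0.449 to 0.997 (limma, Benjamini-Hochberg), with 0 of them at an unadjusted p under 0.05.

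Many of the adaptors had their extremes in the same libraries. Of the 11 actin-linking adaptors, 7 had their highest value in control replicate 3 (63.6%), which held the highest value of 18.2% of all genes, and 6 had their lowest in knockdown replicate 1 (54.5%), against 15.5% of all genes. The median deviation of the 11 from their own means was 0.26 in control replicate 3 and -0.28 in knockdown replicate 1, but 0.16 in control replicate 1 and -0.13 in control replicate 2. The control libraries were therefore on both sides of the mean. For the 26 integrin subunits the same medians lay between -0.049 and 0.077. The part of single libraries in the differences of the adaptors was not tested beyond leaving each out.

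**Figure D5:**
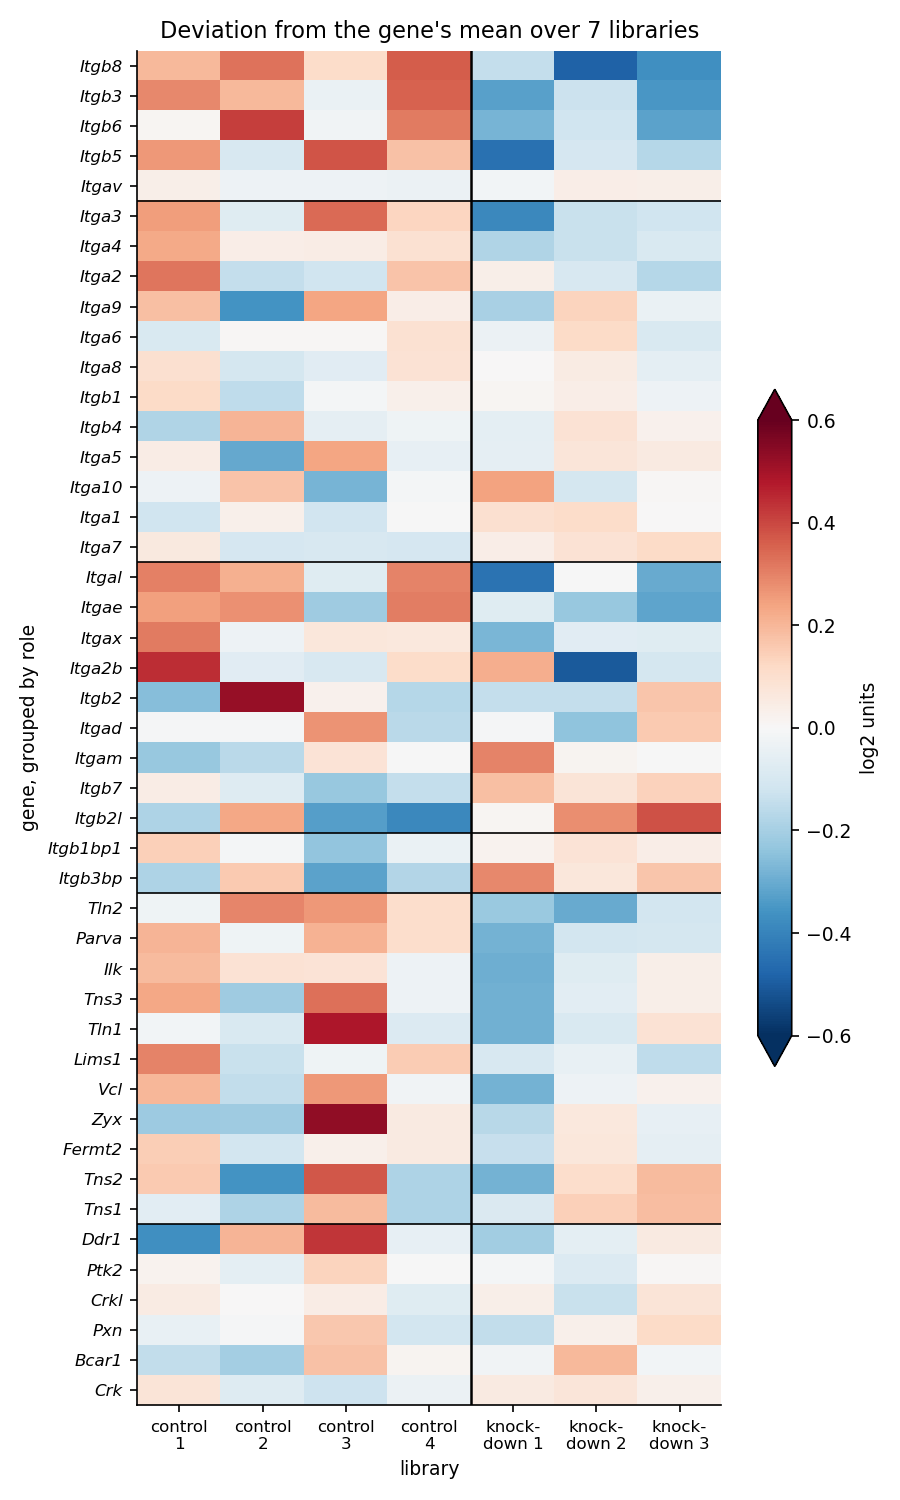
Deviation of each library (columns, 4 control then 3 knockdown) from the gene's own mean over the 7 libraries, in log2 units, for the 45 genes (rows) grouped by role with black lines between groups. The rows of Itgb8, Itgb3, Itgb5 and Itgb6 at the top are lower in every knockdown column than in every control column, and the adaptors are highest in control replicate 3 for 7 of 11 genes.

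Outside the 45 genes, 3 of 112 further genes of integrin adhesion passed, 1 higher and 2 lower: 5.0% of the ligands and 1.39% of the other adaptors and regulators, against 3.02% of all genes. Of 40 measured integrin ligands, with a median of -0.072, Spp1, osteopontin, rose by 0.81 on the log2 scale (limma, Benjamini-Hochberg adjusted p = 0.0322), from a control mean of 14.22 ± 0.25 (SD, n = 4) up to a knockdown mean of 15.03 ± 0.24 (SD, n = 3). Spp1 is a ligand of αv integrins, and its libraries were at 15.26, 15.04 and 14.78 in knockdown and 13.90, 14.48, 14.15 and 14.34 in control, without overlap. Col4a3, a chain of the glomerular basement membrane collagen, fell from 14.95 ± 0.22 to 14.31 ± 0.12 (log2 fold change -0.63; adjusted p = 0.0364). Of 72 other adaptors, kinases and regulators, with a median of -0.021, Cav1, the caveolin that associates with integrins at the membrane, fell from 11.75 ± 0.15 to 11.32 ± 0.07 (log2 fold change -0.43; adjusted p = 0.0394). Spp1, Col4a3 and Cav1 all missed the threshold once title style was a covariate (limma, Benjamini-Hochberg adjusted p = 0.0644, 0.0787 and 0.0847).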

How the data were processed

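RNA of glomeruli isolated after bead perfusion, by magnet and sieving, was sequenced from poly-A selected libraries, per the labels' protocols. Reads were aligned with BWA to mm10, per the submitters' processing notes; the sources used here do not give the counting, the use of strand or the normalization. For each library the deposited table holds 12958 symbols with a value on a log scale, made by the authors and read here as log2, with the base not stated. Depth and counting error are unknown, and no filter on low values was applied.

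Knockdown (n = 3) was compared with control (n = 4) using limma 3.58.1 (R 4.3.3), with group as the only term, a trend of the variance with the mean, and Benjamini-Hochberg adjustment over all genes at a threshold of 0.05. Exact permutation tests of single genes, 2-sided, used all 35 arrangements of the labels. The fit was tested on simulated data. Alternatives were quantile normalization, median scaling, leaving out the lower 25% of genes by mean, a fit with no variance trend, title style as a further term, the data less each library or the CB6 pair, and an adjusted p of 0.1. The genes named are all 45, with values per library for those with an unadjusted p under 0.05, core adaptors and glomerular integrins, and, of the other adhesion genes, those past the threshold. The genes, lists and tests were chosen with earlier results of these data known.

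Across genes, which are no independent replicates, the CB6 libraries (knockdown replicate 3, control replicate 4) deviated from their groups' means with a correlation of -0.958. If a batch was adjusted for before deposit, p-values of the group fit, with 5 residual degrees of freedom against 4 with title style, are too small. In 108 genes, 0 of them among the 45, the libraries titled G deviated from their mean by the same amounts (within 0.003). Coordinates are 1-based, on GRCm38, the same build as mm10.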

Additional observations from a re-analysis of the deposited data

Results flagged for a closer look

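In 4 of the 45 genes, 1 control library stood far from the other 3. The gap to its nearest neighbour took up most of the range of the group. With normal errors, chance marks about 1 gene in 20 this way, and the share over all genes is not given here. Tln1 was at 13.39 in control replicate 3, where the other control libraries lay between 12.81 and 12.89. Itgae was at 6.12 in the same library, below 6.58 to 6.64 in the others. Itgav was at 13.32 and Itga7 at 6.48 in control replicate 1, above 13.25 to 13.26 and 6.32 in the others, both small distances.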

How the results depend on the processing

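Over all genes 391 passed; 191 did with title style as a covariate, 40 without the CB6 pair, 846 at an adjusted p of 0.1, and 134 to 480 with a library left out. Of the 45 genes 1 passed (Itgb8, in 9 of 13 other fits, adjusted p from 0.00931 to 0.229); 2 passed without the lower 25% of genes, 6 at an adjusted p of 0.1, 0 without the CB6 pair (where 7 of the 45 had an unadjusted p under 0.05, beside 10.7% of all genes), and 0 to 4 with a library left out. Of the further adhesion genes 3 passed; 5 did with quantile normalization, 8 without the lower 25% of genes, 1 with no variance trend, 0 with title style as a covariate, 0 without the CB6 pair, 10 at an adjusted p of 0.1, and 0 to 11 with a library left out. The cause was not tested, except that fewer genes or samples entered the fits that left some out. The median of the 45 genes ran from -0.0871 to -0.0050 with a library left out, the latter without control replicate 3.

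In 31 of the 45 genes the sign held in every fit that included the gene (12 or 13). It turned under quantile normalization for Itga6 (0.0074), Itgb1 (-0.0051) and Pxn (0.0044), and without the CB6 pair for Itga6 (0.067), Itga8 (0.053) and Tns2 (-0.15). With a library left out the ranges were -0.054 to 0.050 for Crkl, -0.26 to 0.0006 for Ddr1, -0.012 to 0.16 for Itga10, -0.054 to 0.13 for Itga5, -0.065 to 0.038 for Itga6, -0.039 to 0.029 for Itga8, -0.19 to 0.023 for Itga9, -0.15 to 0.053 for Itgad, -0.038 to 0.052 for Itgb1, -0.18 to 0.094 for Itgb2, -0.024 to 0.10 for Itgb4, -0.059 to 0.073 for Pxn, -0.11 to 0.15 for Tns2 and -0.17 to 0.075 for Zyx. No paired analysis was possible because the labels give the groups no shared replicate numbers; title style, which pairs 1 knockdown with 1 control library, was fitted as a covariate instead.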

Other observations

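Within each library, the β chains of the αv receptors were also set against Itgav, which cancels any factor common to both genes. Itgb8 minus Itgav was -2.25, -2.65 and -2.52 in the knockdown libraries and -1.96, -1.76, -1.98 and -1.72 in the control libraries, a difference between the means of -0.62. The same differences were -0.50 for Itgb3, -0.45 for Itgb5 and -0.45 for Itgb6, and -0.022 for Itgb1, which also pairs with αv. Itgav itself differed by 0.034 between groups, so these differences necessarily repeat the log2 fold changes given above, shifted by that amount. They are descriptions of levels chosen after the values were seen, and they were not tested.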
